A study of Mus musculus with 4 samples.

Results

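Messenger RNA of 8 extracellular matrix genes was described in the mononucleated cells of mouse hindlimb muscle after X-irradiation. The genes were Sparc, Sparcl1, Thbs1, Fn1, Tnc, Postn, Col15a1 and Col18a1, which are 8 of the 32285 genes in the deposited matrices. They were chosen by symbol as matricellular and multiplexin matrix genes, with earlier results of these libraries known, so their levels and ratios are a description and no test was made. Male C57Bl/6J mice received X-rays of 8.2 Gy on each of 3 days to 1 hindlimb at an age of 5 weeks. The opposite limb of the irradiated animals, shielded with lead like the rest of the body, was the control, so the control tissue came from animals that had also been exposed. Limbs were taken 24 h after the last dose (libraries CON 24-hours for the control and IR 24-hours for the irradiated limb) or 56 days after irradiation (likewise CON 56-days and IR 56-days). Cells of 3 limbs were pooled, sorted as live and nucleated, and made into 1 single-cell 3′ library per group.

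The 4 libraries held 7086 barcodes, of which 6544 passed limits on genes, UMIs and mitochondrial share. Between 969 and 2539 barcodes were kept per library, with 4543545 to 9751722 UMIs (unique molecular identifiers, 1 for each captured transcript) and median depths of 3057 to 3627 UMIs. Over all pairs of libraries 11 barcodes occurred in both members of a pair. With 1 library per group, every interval given here is a 95% counting interval and covers no difference between animals, dissociations or libraries. The controls of the 2 times differed in age, in the time since the animals were exposed and in library, and these cannot be told apart. The terms older and younger control below name the library and not a cause. Levels are CPM, the UMIs of a gene per 1000000 UMIs of all cells of a class, and they were compared between libraries for 1 gene, not between genes, because 3′ capture differs from gene to gene. In pooled cells, more RNA per cell and more cells of high level were not separated. Shares of cells with a UMI are given beside some levels, but either of these can raise such a share.

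Matricellular proteins are secreted into the matrix but act on cells and on matrix assembly more than they bear load. SPARC binds fibrillar and basement membrane collagens, and hevin, the product of Sparcl1, is its closest relative. Thrombospondins, tenascins and periostin bind integrins and other receptors and are known from wound repair, whereas fibronectin is a structural glycoprotein that cells assemble into fibrils. Multiplexins are collagens with interrupted triple helices in and beside vascular and muscle basement membranes, and fragments of their C-terminal ends, endostatin in the case of Col18a1, are known as inhibitors of angiogenesis.

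Sparc, Col15a1 and Col18a1 were each higher in irradiated than control endothelium at 56 days, so the 250 bases before their RefSeq start sites are shown (build GRCm38.p6, 5′ to 3′ on the strand of the gene). Of the 8 genes, 5 matched the RefSeq promoter table, with 8 windows in all. Thbs1 and Fn1 were also higher in irradiated endothelium at 56 days, but they and Sparcl1 had no window. Capitals mark matches to any of 6 motifs on either strand. The Sparc window lies at chr11:55420081-55420330 on the minus strand, the Col15a1 window at chr4:47207762-47208011 on the plus strand, and the Col18a1 windows at chr10:77166531-77166780 and chr10:77113706-77113955 on the minus strand. The Sparc window falls inside the span of the gene in the GENCODE annotation, which begins further upstream, and the second Col18a1 window lies within its gene.
Sparc: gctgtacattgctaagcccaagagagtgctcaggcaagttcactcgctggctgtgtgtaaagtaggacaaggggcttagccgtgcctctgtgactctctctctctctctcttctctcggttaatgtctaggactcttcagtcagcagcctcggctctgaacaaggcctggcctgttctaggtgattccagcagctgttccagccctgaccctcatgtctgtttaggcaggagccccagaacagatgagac
Col15a1: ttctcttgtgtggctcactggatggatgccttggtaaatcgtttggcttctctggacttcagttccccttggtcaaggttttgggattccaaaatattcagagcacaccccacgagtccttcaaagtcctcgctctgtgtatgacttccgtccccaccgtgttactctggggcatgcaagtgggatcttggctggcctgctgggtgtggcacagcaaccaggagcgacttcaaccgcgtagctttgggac
Col18a1, first start: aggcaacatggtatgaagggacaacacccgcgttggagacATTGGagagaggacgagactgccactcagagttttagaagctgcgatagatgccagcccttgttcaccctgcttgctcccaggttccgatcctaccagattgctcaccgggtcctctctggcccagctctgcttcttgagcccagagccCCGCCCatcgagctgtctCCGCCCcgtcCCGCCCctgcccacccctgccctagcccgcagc
Col18a1, second start: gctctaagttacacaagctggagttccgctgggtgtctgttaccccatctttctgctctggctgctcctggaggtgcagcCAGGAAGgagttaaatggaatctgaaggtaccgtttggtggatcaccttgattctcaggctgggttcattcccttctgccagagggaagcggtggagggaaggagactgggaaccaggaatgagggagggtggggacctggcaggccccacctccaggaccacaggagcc

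The motifs searched were the GC box GGGCGG, the TATA box TATAAA, the CCAAT box CCAAT, the AP-1 element TGANTCA, the ETS motif CAGGAAG and the core of the interferon-stimulated response element. Among 32851 windows of the same length, 32.7%, 12.4%, 33.8%, 6.75%, 10.8% and 2.98% held at least 1 match, in that order. The Sparc and Col15a1 windows held 0 matches. The first Col18a1 window held 3 GC boxes, which began 61, 43 and 33 bases before the start site, and 1 CCAAT box that began 210 bases before it. The second held 1 ETS match that began 170 bases before its start. The 3′ counts do not tell which of the Col18a1 starts was used. A match is a description of the letters in the window and not of binding.

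Cells were assigned to classes by at least 3 markers of the class, and no member gene was among those markers. Endothelial cells numbered 462, 1513, 779 and 470 in the control and irradiated limb at 24 h and then the control and irradiated limb at 56 days, the order of every set of 4 values below. Pericytes numbered 39, 116, 36 and 50, smooth muscle cells 8, 24, 19 and 21, and fibro-adipogenic progenitors (FAPs, the resident mesenchymal cells of muscle) 43, 57, 86 and 35. Endothelial genes outside the assignment (Cldn5, Emcn, Ly6c1 and Ecscr, chosen after the data were seen) summed to 3476 to 4832 CPM in endothelium and 15 to 35.1 CPM in pericytes. Those endothelial genes were at 677 to 1185 CPM in FAPs, with 1, 1, 2 and 2 of the 4 at 0 UMIs. The most widespread of them was in 48.8%, 66.7%, 68.6% and 60% of FAPs, and any of the 4 in 62.8%, 71.9%, 70.9% and 60%. Mural genes chosen likewise (Myl9, Mylk, Gucy1a1 and Ebf2) summed to 4233 to 5232 CPM in pericytes and 87.4 to 123.7 CPM in endothelium. FAP genes (Col3a1, Gsn, Col6a3 and Htra3) summed to 29329.5 to 35656 CPM in FAPs, 10.1 to 18.8 in endothelium, 785 to 1035 in smooth muscle and 2263 to 4050 in pericytes. No cell met the assignment of tenocytes as written; 84 cells with at least 3 tenocyte markers among the unassigned cells were kept as a separate class, added after the data were seen.

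Over the 4 libraries together the 8 genes divided among these classes in distinct ways, and the shares follow the number of cells of each class sorted as well as their level. Endothelium held 73.5% of all Sparcl1 UMIs, 53.6% of Sparc and 51.5% of Col15a1, but 0.666% of Postn. FAPs held 38.7% of Fn1 UMIs (27.3% to 52.7% by library) and 17.7% of Col15a1 UMIs. Tenocyte-marker cells, 84 of 6544, held 80.5% of the 478 Tnc UMIs and 36.8% of Postn, and Schwann cells held a further 40.5% of Postn. For Thbs1 the order of classes differed between libraries. Leukocytes other than B cells and macrophages held 62.3% and 73.7% of Thbs1 UMIs in the controls at 24 h and 56 days, but 8.36% and 14.7% in the irradiated limbs. In the irradiated limbs endothelium held 19.7% and 16.0% of Thbs1 and tenocyte-marker cells 22.1% and 34.9%. Col18a1 was divided among several classes, with shares in endothelium (30.0%), FAPs (13.1%), smooth muscle (12.1%), tenocyte-marker cells (12%) and pericytes (9.08%).

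**Figure D1:**
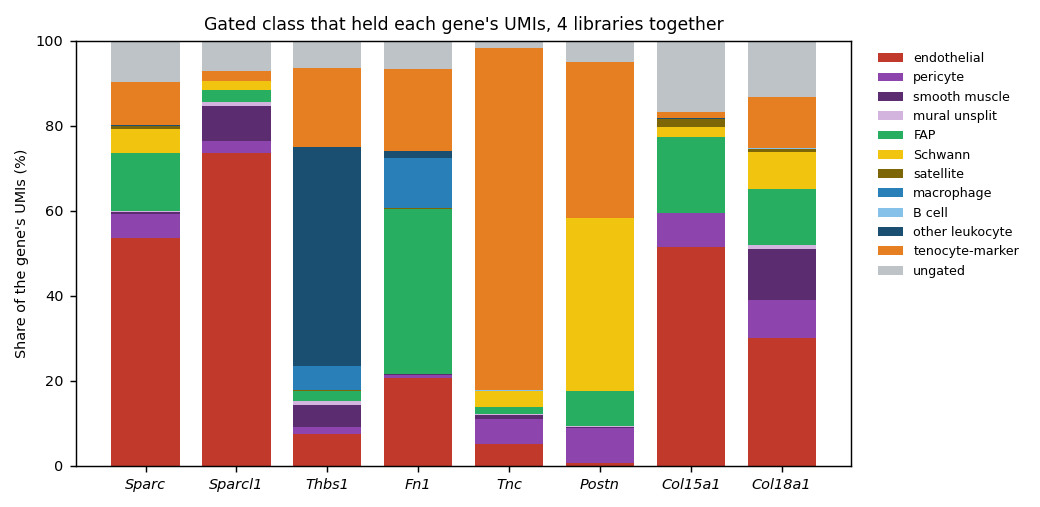
Share of each gene's UMIs (%) in each cell class, all 4 libraries together, 1 stacked bar per gene. Endothelium takes the main part of the bars of Sparcl1 (73.5%), Sparc (53.6%) and Col15a1 (51.5%), while Tnc lies mostly in tenocyte-marker cells (80.5%).

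Sparc, the collagen-binding glycoprotein also called osteonectin, lies at chr11:55394500-55423183 (GRCm38, minus strand) and gave 77673 UMIs. In endothelium its level was 4717 CPM (4616 to 4820), 3814 (3763 to 3866), 1971 (1917 to 2026) and 3713 (3628 to 3800). The control at 56 days was the lowest of the 4, and the irradiated limb at 56 days stood close to the irradiated limb at 24 h. The irradiated level was 0.809-fold the control at 24 h (0.788 to 0.830) and 1.88-fold at 56 days (1.82 to 1.95). The older control was at 0.418-fold the younger one (0.403 to 0.433). Each control library enters 2 of these 3 ratios, so they are not independent of each other.

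A Sparc UMI was found in 97.0%, 95.8%, 87.8% and 90.9% of endothelial cells, and, after each cell was thinned to 1000 UMIs, in 93.2%, 90.9%, 76.7% and 83.8%. In B cells, which should lack the transcript, the shares were 2.62%, 4.12%, 2.78% and 1.79% at median depths of 3051.5 to 3340 UMIs, close to the endothelial medians of 2952 to 3541.5. Most endothelial cells of every library thus held a Sparc UMI. The UMIs were spread widely: the highest cell held 0.673% to 2.64% of a library's endothelial Sparc UMIs.

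In each of the 5 endothelial subtypes Sparc was highest in CON 24-hours and lowest in CON 56-days. Capillary cells had 4789, 3847, 1927 and 3776 CPM, and arterial cells 4656, 3544, 1917 and 2693 CPM. Venous cells had the lowest Sparc among the subtypes, at 2884, 2170, 1138 and 1828 CPM, or 0.476-fold to 0.591-fold the level of all other endothelial cells of the same library. The 56-day ratio was 1.96 in capillary (1.83 to 2.09), 1.40 in arterial (1.29 to 1.54), 1.61 in venous (1.34 to 1.92), 1.83 in tip-like (1.65 to 2.03) and 2.06 in interferon-high cells (1.90 to 2.24). The mix of subtypes also differed: interferon-high cells made up 13.0%, 6.35%, 8.73% and 18.7% of endothelium and capillary cells 46.5%, 49.7%, 53.0% and 33.4%. With the subtypes held at a common mix, the endothelial Sparc ratio at 56 days was 1.78.

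Mural cells and FAPs also carried Sparc. Pericytes had 7074, 4765, 3878 and 5901 CPM, a ratio of 0.674 at 24 h (0.621 to 0.732) and 1.52 at 56 days (1.37 to 1.69). That pericyte value at 56 days was 1.21 when cells were weighted equally, below the 1.5-fold used here as a limit. It was 1.26, also below that limit, when only cells with at most 1 marker of any other class were kept. In IR 56-days 1 pericyte held 171 of the 1036 Sparc UMIs. The median per pericyte was 8 Sparc UMIs in IR 56-days and 11 in CON 56-days, at median depths of 2739.5 and 3451.5 UMIs. The summed pericyte markers were 23820, 24976, 21286 and 15466 CPM in these pericytes, and smooth muscle markers in them 12650, 7335, 9217 and 14549 CPM; their part in the Sparc values was not tested. Smooth muscle had much lower Sparc, at 1692, 1151, 418 and 909 CPM from 8 to 24 cells, with a ratio of 0.680 at 24 h (0.532 to 0.874) and 2.17 at 56 days (1.57 to 3.06). The first of these was 0.285 after thinning and 0.383 with cells weighted equally.

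In FAPs the 56-day ratio of Sparc lay below 1, and in the vascular classes it lay above 1; this difference was not tested. The FAP level was 13155, 9319, 4793 and 4129 CPM, so both late libraries were below both early ones. The FAP ratio was 0.708 at 24 h (0.676 to 0.743) and 0.861 at 56 days (0.795 to 0.932), and the older control was at 0.364-fold the younger (0.346 to 0.384). FAP depth differed between libraries, with medians of 3152, 5654, 6537.5 and 4612 UMIs per cell. After thinning and under the other alternatives the late ratio ran from 0.808 to 1.11.

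**Figure D2:**
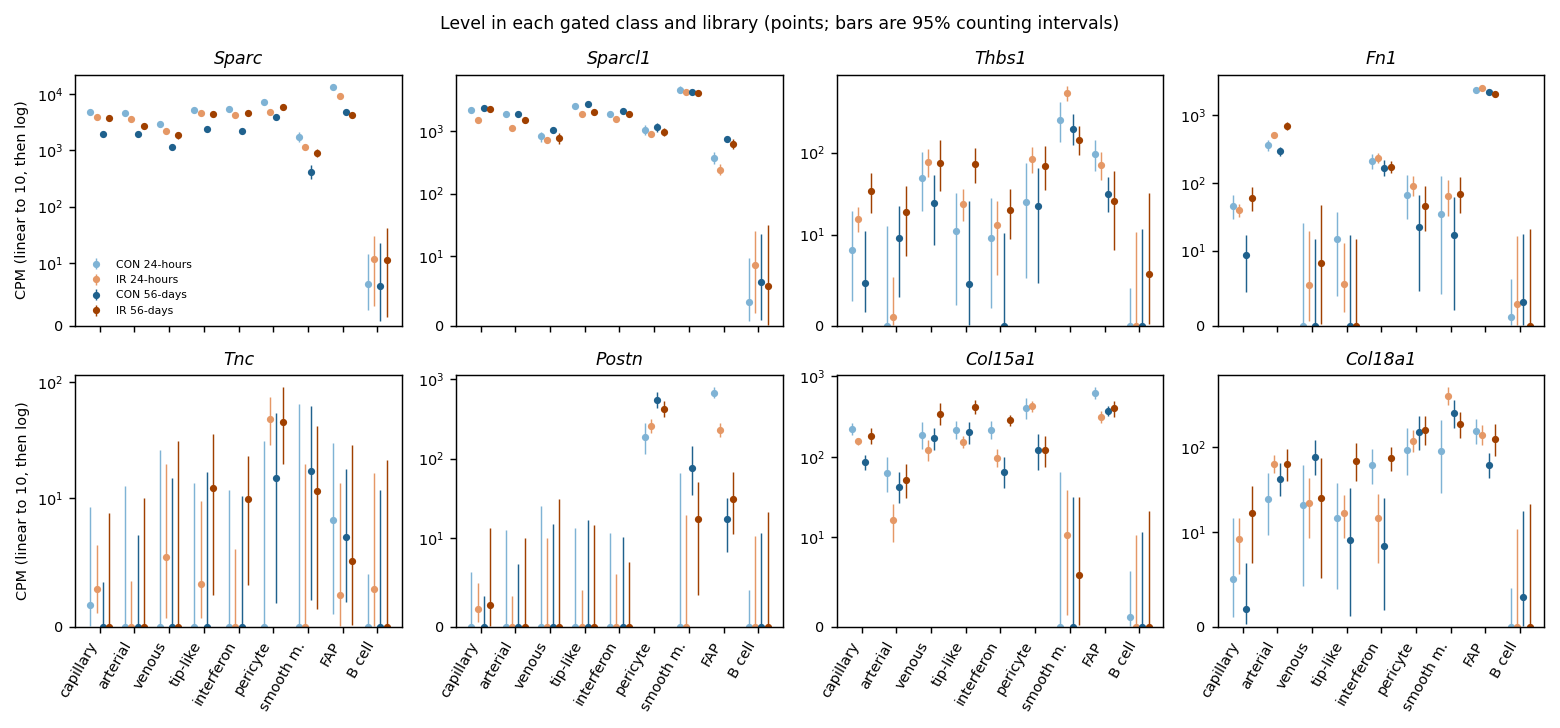
Level of each of the 8 genes (CPM, on an axis that is linear to 10 and logarithmic above) in endothelial subtypes, mural cells and FAPs, with 1 point per library and 95% counting intervals. Sparc is lowest in CON 56-days in each endothelial subtype, and in FAPs both 56-day points lie below the 24 h points (4793 and 4129 against 13155 and 9319 CPM).

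Sparcl1, also called hevin, is a relative of Sparc that is abundant in vessels (chr5:104079111-104113733, minus strand, 27316 UMIs). In endothelium it was at 1981 CPM (1915 to 2048), 1427 (1396 to 1459), 2083 (2028 to 2140) and 1730 (1672 to 1789). Both irradiated libraries were below both controls, and the controls were close to each other. The ratio was 0.720 at 24 h (0.692 to 0.750), 0.830 at 56 days (0.795 to 0.867) and 1.05 between controls (1.01 to 1.10). None of these passed the 1.5-fold limit, and at 56 days Sparcl1 stood opposite in direction to Sparc. A UMI was found in 92.2%, 83.5%, 90.2% and 90.9% of endothelial cells (78.2%, 66.7%, 80.9% and 71.8% thinned), and in 1.31% to 3.09% of B cells.

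Within endothelium, arterial cells had the lowest 24 h ratio of Sparcl1, 0.596 (0.538 to 0.660), from 1886 to 1124 CPM, and venous cells the highest of the 5 subtypes, 0.885 (0.710 to 1.11). Venous cells held 815, 722, 1037 and 759 CPM, 0.391-fold to 0.488-fold the other endothelial cells of each library. Smooth muscle cells had Sparcl1 at 4548, 4200, 4234 and 3986 CPM, with ratios of 0.923 at 24 h (0.801 to 1.07) and 0.941 at 56 days (0.838 to 1.06). The first of these was 1.69 after thinning to 1000 UMIs per cell, and with no marker of another class, in 2 to 4 cells per library, the 56-day ratio was 1.46 and that between controls 2.04 (from 0.931). In FAPs the level was 368, 239, 736 and 626 CPM. The 24 h ratio in FAPs was 0.649 (0.483 to 0.875), but it was 1.65 when FAPs with more than 1 marker of another class were left out.

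Col15a1 encodes collagen XV, which links basement membranes to the fibrils beneath them (chr4:47208161-47313167, plus strand, 3207 UMIs). In endothelium it was at 190 CPM (170 to 211), 115 (107 to 125), 97.1 (85.4 to 110) and 223 (202 to 245). As with Sparc, the order of control and irradiated limb was opposite at the 2 times. The ratio was 0.608 at 24 h (0.532 to 0.696), 2.29 at 56 days (1.96 to 2.69) and 0.511 between controls (0.432 to 0.604), the last being 0.323 in cells with no marker of another class. After thinning to 1000 UMIs per cell the 24 h ratio was 0.747, which is inside the 1.5-fold limit. Cells with a UMI were 29.9%, 21.7%, 15.7% and 22.8% of endothelium (13.2%, 9.73%, 6.82% and 11.9% thinned), against at most 0.437% of B cells.

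Arterial cells carried little Col15a1, 62.1, 16.2, 42.2 and 51.3 CPM, or 0.117-fold to 0.380-fold the rest of the endothelium in each library. Capillary cells had 222, 155, 85 and 182 CPM, and interferon-high cells 217, 97.4, 65.2 and 282 CPM. The interferon-high ratio at 56 days was 4.33 (2.77 to 7.05). Tip-like cells were at 217, 154, 201 and 414 CPM, the highest of the 5 subtypes in both late libraries. Pericyte values lay close together within a time and apart between times, at 404, 424, 120 and 120 CPM, and the irradiated-to-control ratio was 1.05 at 24 h (0.758 to 1.48) and 0.999 at 56 days (0.497 to 2.05). Smooth muscle cells had 0, 2, 0 and 1 UMIs, and FAPs 620, 311, 371 and 400 CPM.

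Col18a1, the gene of collagen XVIII and the source of endostatin (chr10:77052178-77166548, minus strand, 1168 UMIs), was low in endothelium in 3 libraries and higher in the fourth. Endothelial levels were 22.8 CPM (16.3 to 31.1), 26.2 (22.1 to 30.8), 20.2 (15.1 to 26.5) and 58.5 (48.2 to 70.3). The 56-day ratio was 2.90 (2.07 to 4.11), with 52 and 113 UMIs. The 24 h ratio was 1.15 (0.804 to 1.67), and it was 1.53 without the highest cell, which held 27.5% of the 40 UMIs in CON 24-hours; it was 1.90 with cells weighted equally and 2.90 after thinning. UMIs were found in 4.98%, 6.21%, 4.11% and 10.6% of endothelial cells (0.978%, 2.61%, 1.34% and 5.73% thinned), and in at most 1.39% of B cells.

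The subtypes that held Col18a1 differed between libraries. Venous cells held 36.5% of the endothelial UMIs in CON 56-days and 2.65% in IR 56-days, or 76.7 and 25 CPM. Interferon-high cells held 47.5%, 6.21%, 5.77% and 32.7% in the 4 libraries, at 60.6, 14.6, 8.51 and 73.1 CPM. These came from 19, 9, 3 and 37 UMIs, so the order of control and irradiated limb was opposite at the 2 times. Arterial cells had 24.1, 62.9, 42.2 and 62.1 CPM, with a 24 h ratio of 2.60 (1.20 to 6.73). Capillary cells were the lowest of the 5 subtypes in each library, at 5.01, 9.24, 1.87 and 16.7 CPM. In smooth muscle the level was 88.1, 398, 248 and 184 CPM, on 5 UMIs in the first library, and the 24 h ratio was 4.51 (1.85 to 14.3), or 7.80 without the highest cell, 8.79 with cells weighted equally and 12.8 with at most 1 marker of another class. FAPs had 153, 138, 61.2 and 123 CPM and a 56-day ratio of 2.01 (1.15 to 3.48), or 3.16 with cells weighted equally.

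Fn1, fibronectin (chr1:71585520-71653200, minus strand, 8465 UMIs), was held mainly by arterial cells among the endothelial subtypes. Arterial cells had 359 CPM (293 to 435), 510 (468 to 556), 294 (249 to 344) and 694 (612 to 784), or 5.20-fold to 6.85-fold the other endothelial cells of the same library. Arterial cells held 50.7%, 61.6%, 62.7% and 59.4% of endothelial Fn1 UMIs. Venous cells held 0, 2, 0 and 1 UMIs in all, where a count of 0 allows up to 20.9 CPM in CON 24-hours and 12.1 in CON 56-days. Tip-like cells held 4, 5, 0 and 0 UMIs. Among the 5 subtypes arterial cells came first in all 4 libraries, interferon-high cells next and capillary cells after them.

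Over the endothelium as a whole Fn1 was at 117 CPM (101 to 134), 157 (147 to 168), 94.7 (83.2 to 107) and 224 (204 to 246). Both irradiated libraries were above both controls. The ratio was 1.34 at 24 h (1.15 to 1.57) and 2.37 at 56 days (2.02 to 2.78), and 1.99 at 56 days with the subtypes at a common mix. Over the alternatives the 24 h ratio ran from 1.01 to 1.43. In arterial cells alone it was 1.42 (1.15 to 1.77) and 2.36 (1.93 to 2.91). Arterial cells with a UMI were 49.4%, 51.3%, 38.5% and 66.7%, and 27.6%, 28.4%, 22.0% and 39.6% after thinning, against at most 1.39% of B cells. In interferon-high cells, at 211, 237, 167 and 174 CPM, the 56-day ratio was 1.04 (0.738 to 1.47); the difference between subtypes was not tested.

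Capillary Fn1 was low, 45.1, 39.4, 9.34 and 59.8 CPM, and its 56-day ratio of 6.41 (2.97 to 14.9) rested on 10 and 25 UMIs; it ran from 2.69 to 18.1 over the alternatives. FAPs carried far more Fn1 than endothelium, with 2357, 2511, 2206 and 2067 CPM. Their ratios were 1.07 at 24 h (0.961 to 1.18) and 0.937 at 56 days (0.836 to 1.05). Over the alternatives the 56-day ratio in FAPs ran from 0.641, after thinning, to 1.29. Fn1 in macrophages was 753, 1015, 830 and 776 CPM. Leukocyte markers in endothelium summed to 9.69, 19.9, 3.11 and 10.9 CPM, macrophage markers to 2.28, 6.14, 3.11 and 15.5 CPM and FAP markers to 18.8, 23.1, 16.7 and 26.4 CPM, and their part in endothelial Fn1 was not tested.

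**Figure D3:**
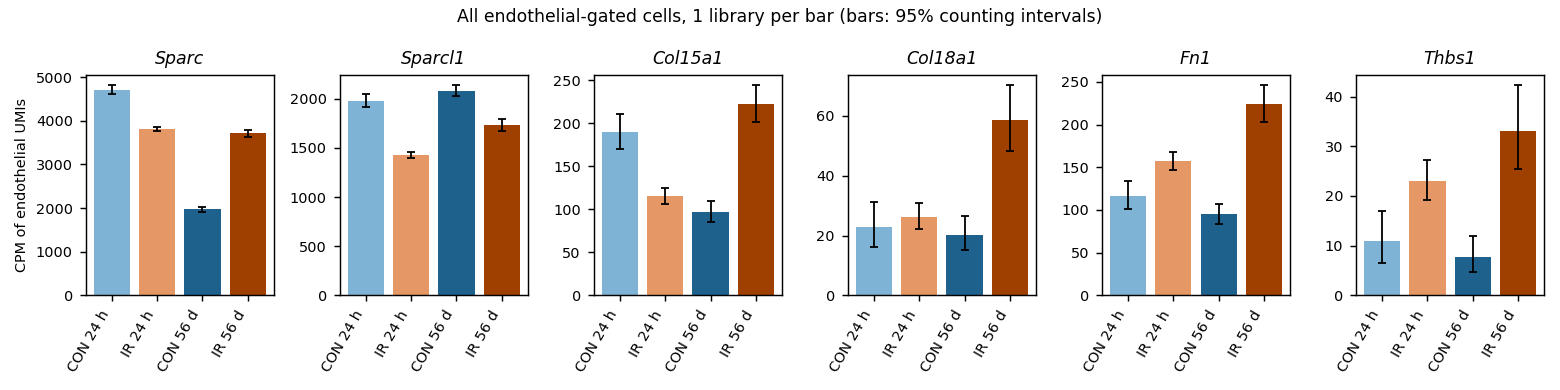
Level in all endothelial cells (CPM, linear axes that start at 0) of the 6 genes measured there, 1 bar per library with its 95% counting interval. Sparc and Col15a1 are lower in the irradiated limb at 24 h and higher at 56 days (Sparc 3713 against 1971 CPM), whereas Sparcl1 is below its control at both times.

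Thbs1 encodes thrombospondin-1, an inhibitor of angiogenesis and an activator of latent TGF-β (chr2:118111876-118127133, plus strand, 3112 UMIs). It was rare in endothelium, at 10.8 CPM (6.52 to 16.9), 22.9 (19.1 to 27.3), 7.76 (4.74 to 12) and 33.1 (25.5 to 42.3), from 19, 127, 20 and 64 UMIs. Both irradiated libraries were above both controls. The ratio was 2.12 at 24 h (1.30 to 3.63) and 4.27 at 56 days (2.55 to 7.45). After thinning to 1000 UMIs per cell the 24 h ratio was 1.03, and the 56-day ratio was 6.82 with cells weighted equally and 7.36 in cells with no marker of another class. Both leukocyte markers (9.69, 19.9, 3.11 and 10.9 CPM) and macrophage markers (2.28, 6.14, 3.11 and 15.5 CPM) were also higher in the endothelium of the irradiated limb at each time, with 1, 0, 1 and 0 of the 6 and 6, 3, 4 and 0 of the 8 markers at 0; their part in the Thbs1 level was not tested. Cells with a UMI were 3.03%, 4.82%, 2.31% and 7.66% of endothelium (1.71%, 1.53%, 0.593% and 2.15% thinned), and 0%, 0%, 0% and 1.79% of B cells.

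Venous cells stood above the other endothelial cells in Thbs1 in each library, by 6.54-fold (2.18 to 18), 3.95-fold (2.5 to 6.06), 4.03-fold (1.27 to 11.2) and 2.47-fold (1.07 to 5.05). Tip-like cells reached 72.4 CPM in IR 56-days from 18 UMIs, against 4.56 CPM from 1 UMI in CON 56-days, under the minimum of 20 UMIs set for a ratio. Arterial cells had 0, 1, 5 and 7 UMIs, in the subtype that held most endothelial Fn1. Smooth muscle had 247, 525, 196 and 144 CPM, with a ratio of 2.13 at 24 h (1.21 to 4.03) and 0.732 at 56 days (0.399 to 1.35). The latter turned to 7.12 under stricter barcode limits, with 9 and 17 cells left, and to 1.32 with cells weighted equally. Pericytes had 3, 33, 3 and 12 UMIs and a 24 h ratio of 3.28 (1.03 to 16.7), or 2.17 with at most 1 marker of another class.

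Postn, periostin (chr3:54361109-54391037, plus strand, 3305 UMIs), and Tnc, tenascin-C (chr4:63959785-64047015, minus strand, 478 UMIs), were nearly absent from endothelium. Endothelial cells held 0, 19, 0 and 3 Postn UMIs, and 78.9% of the 19 were in 1 cell. They held 1, 12, 1 and 10 Tnc UMIs. In FAPs Postn was at 674 CPM (575 to 786), 232 (188 to 283), 17.5 (8.38 to 32.1) and 30.8 (11.3 to 67.0), so both early libraries were above both late ones. The 24 h ratio was 0.344 (0.264 to 0.445), and the older control was at 0.0259-fold the younger (0.0122 to 0.0489), or 0.00819-fold with at most 1 marker of another class.

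A single cell held 53.4% of the 163 Postn UMIs of FAPs in CON 24-hours, and the 24 h ratio was 0.496 without the highest cell and 0.577 after thinning. Postn was found in 18 of 43, 19 of 57, 3 of 86 and 2 of 35 FAPs. Tenocyte markers in these FAPs summed to 587, 140, 294 and 205 CPM, with 3, 3, 2 and 3 of the 6 markers at 0, and their part in the Postn level was not tested. Pericytes held Postn at 185, 256, 547 and 422 CPM, with a ratio of 1.38 at 24 h (0.866 to 2.30), 0.771 at 56 days (0.551 to 1.08) and 2.95 between controls (1.81 to 5.00). With at most 1 marker of another class the last 2 of these were 0.507 and 6.77. Tnc gave 1 to 4 UMIs per library in FAPs and 0, 19, 2 and 8 in pericytes, where all 19 came from 1 cell, so it was not measured in these classes at a depth that allows a comparison.

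A member was counted as past the limit where its summed UMIs over both libraries reached 20 and the ratio was at least 1.5-fold either way. In endothelium at 24 h, 1 of 6 measured members was higher (Thbs1) and 1 was lower (Col15a1), where 16.6% of 10961 measured genes were higher and 6.24% lower. At 56 days 5 of 6 were higher and 0 lower, all but Sparcl1, beside 12.9% and 12.5% of 10145 genes. The median log2 ratio of the 6 was 1.22 at 56 days, beside 0.02 over all measured genes. Between controls 0 were higher and 2 were lower (Sparc and Col15a1), beside 13.2% and 9.58%. These contrasts were known when the members were chosen, so the counts support nothing further.

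In capillary cells, 2 of 6 measured members were higher at 24 h (18.5% of genes were higher and 8.58% lower), 3 of 4 at 56 days (14.5% and 16%), and 3 of 4 were lower in the older control (15% higher and 12% lower). The 2 at 24 h were Thbs1, on 5 and 32 UMIs (1.86-fold, 0.721 to 6.13), and Col18a1, on 3 and 19 UMIs (1.84-fold, 0.543 to 9.73). Both intervals held 1. Sparc (0.803-fold), Sparcl1 (0.703-fold) and Col15a1 (0.698-fold) lay below 1 there, inside the 1.5-fold limit, with intervals that left out 1. Fn1 was at 0.874-fold (0.559 to 1.41). In pericytes 1 of 7 was higher at 24 h (21.4% of genes higher, 16.3% lower) and 1 of 5 at 56 days (21.8% and 17.2%). Between controls 2 of 5 pericyte members were higher and 2 lower (18.1% and 20.9%). In smooth muscle 2 of 4 were higher at 24 h (19.1% and 20.6%), 1 of 4 at 56 days (21.8% and 12.6%), and 1 higher and 1 lower between controls (15.6% and 22.8%). In FAPs 3 of 7 were lower at 24 h (22.9% of genes higher, 11.7% lower), 1 of 6 was higher at 56 days (15.7% and 22.5%), and 5 of 7 were lower with 1 higher in the older control (25.1% and 12.8%). The FAP members that were lower in the older control were Sparc, Col15a1, Col18a1, Postn and Thbs1, and Sparcl1 was the higher one, at 2.00-fold (1.59 to 2.54), or 5.05-fold with at most 1 marker of another class.

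**Figure D4:**
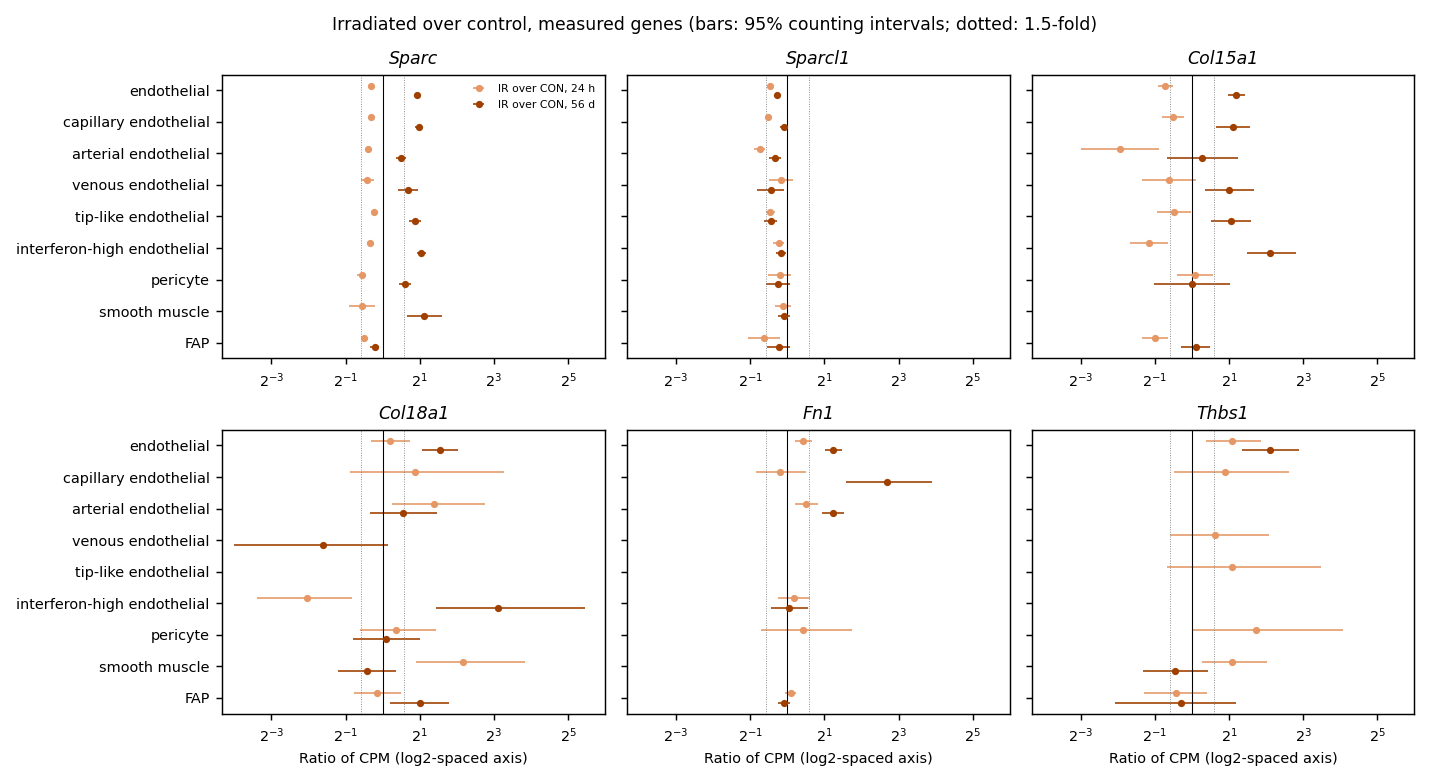
Irradiated over control ratio of CPM (log2-spaced axis) in each class at 24 h and 56 d for 6 genes, with 95% counting intervals; dotted lines mark 1.5-fold, and genes with 0 UMIs in a library or fewer than 20 in all are not drawn. The Sparc points at 56 d lie right of 1 in every vascular class (1.40 to 2.17) and left of it in FAPs (0.861).

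Relatives of the members, 31 other matricellular and vessel-wall glycoprotein genes, were examined in the same cells. In endothelium 13 were measured, of which 4 were higher and 4 lower at 24 h (16.6% of all measured genes were higher and 6.24% lower), and 4 higher and 1 lower at 56 days (12.9% and 12.5%); the median log2 ratio was 0.17 and 0.36, beside 0.07 and 0.02 over all genes. Mmrn2, an endothelial matrix glycoprotein that binds VEGF, was higher at both times, from 492 to 740 CPM (1.50-fold, 1.40 to 1.62) and from 437 to 842 CPM (1.93-fold, 1.78 to 2.08). Mmrn1, multimerin of platelets and endothelium, had 0 and 67 UMIs at 24 h and 29 and 88 at 56 days (4.05-fold, 2.63 to 6.39). Fbln5, an elastic fibre protein, was at 0.648-fold at 24 h (0.541 to 0.778) and 2.33-fold at 56 days (1.98 to 2.76); it is a marker of the arterial gate, so that gate can shape its level within subtypes. Fbln2, a basement membrane fibulin, was at 0.610-fold at 24 h (0.561 to 0.664), and in capillary cells at 0.319-fold at 24 h (0.266 to 0.384) and 0.516-fold at 56 days (0.407 to 0.648).

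In FAPs 1 of 18 measured relatives was higher and 6 lower at 24 h (22.9% of genes higher, 11.7% lower), and 1 of 21 was higher and 7 lower at 56 days (15.7% and 22.5%), among the latter Fbln2, from 1190 to 769 CPM (0.646-fold, 0.538 to 0.772). Pericytes had 4 of 7 measured relatives higher at 56 days and 0 lower (21.8% and 17.2% of genes), among them Igfbp7, a secreted binding protein of vessel walls, from 2486 to 4079 CPM (1.64-fold, 1.44 to 1.87), and Ccn3, a CCN family protein, on 6 and 40 UMIs (5.07-fold, 2.14 to 14.6). Igfbp7 was also higher in smooth muscle at 24 h (1.75-fold, 1.46 to 2.12). Ccn2, connective tissue growth factor, was lower in irradiated smooth muscle at 24 h (0.317-fold, 0.197 to 0.511) and at 0.105-fold in the older control (0.0421 to 0.228), but 8.45-fold higher in FAPs of the older control (3.18 to 31.8). Comp, a cartilage and tendon thrombospondin and a tenocyte marker, had 111 and 0 UMIs in FAPs at 24 h and 36 in CON 56-days.

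Receptors and partners of the members, 36 genes, were mostly integrins and proteoglycans. In endothelium at 24 h 6 of 21 measured were higher and 0 lower (16.6% and 6.24% of genes), and at 56 days 5 of 19 were higher and 2 lower (12.9% and 12.5%). Itgb1, the beta chain shared by many collagen and fibronectin receptors, was higher at 24 h in endothelium (797 to 1288 CPM, 1.62-fold, 1.53 to 1.71), pericytes (1.82-fold, 1.53 to 2.17), smooth muscle (2.06-fold, 1.49 to 2.92) and FAPs (2.04-fold, 1.64 to 2.55). At 56 days it was lower in pericytes (0.550-fold, 0.456 to 0.663), smooth muscle (0.617-fold, 0.488 to 0.780) and FAPs (0.541-fold, 0.418 to 0.691). In these classes the older control was itself above the younger one. Its Itgb1 level was 1.64-fold in pericytes (1.34 to 2.01), 1.79-fold in smooth muscle (1.26 to 2.58) and 1.65-fold in FAPs (1.33 to 2.06). Itga5, the alpha chain of the classical fibronectin receptor, was higher in endothelium at 56 days, from 47.0 to 78.7 CPM (1.68-fold, 1.31 to 2.15). Cd36, a receptor of thrombospondin and of fatty acids, was lower there, from 3364 to 1802 CPM (0.536-fold, 0.515 to 0.557), and in capillary cells (0.541-fold, 0.502 to 0.582). Cd36 is also a marker of the capillary gate, which can shape its level within subtypes. Itga1, the alpha chain of a collagen receptor, was at 0.642-fold (0.598 to 0.690).

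Genes with the most similar level pattern were sought over 47 class-by-library units of at least 25 cells, among 10606 genes with at least 200 UMIs. The measure was Pearson's r of log2(CPM + 10), a description only, since units share libraries and depth. Sparc was closest to Serpinh1, the collagen chaperone HSP47 (r = 0.986), then Cavin3 (0.970) and Copz2 (0.968), and Col15a1 also had Serpinh1 (0.902) and Cavin3 (0.899) as its nearest genes. Sparcl1 was closest to Apbb2 (0.948), Col4a2, a chain of basement membrane collagen (0.940), and Tm4sf1 (0.939). Col18a1 was closest to Htra1 (0.888), and Fn1 to Serpinf1 (0.794), which is a FAP marker of the assignment. Tnc was closest to Col11a2 (0.886) and the tendon proteoglycan Fmod (0.879), Postn to Snhg18 (0.943), and Thbs1 less closely to Runx2 (0.723). Fmod is a marker used to assign the tenocyte-marker cells, which held 80.5% of Tnc UMIs, so the assignment can shape this likeness. Sparc and Sparcl1 had r = 0.870 with each other, whereas Sparc and Fn1 had 0.205.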

How the data were processed

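Single-cell 3′ libraries (10x Genomics v3 chemistry) were made from sorted cells, 1 library per group, per the labels' protocols. The deposited matrices hold raw UMI counts per gene and barcode, made by the authors with Cell Ranger 5.0.0 on mm10, per the file headers and the submitters' processing notes, for barcodes the authors had already called as cells. Total depth per library before filtering was 4715202 to 10121978 UMIs.

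Barcodes were dropped if they had fewer than 200 genes, fewer than 500 UMIs or a mitochondrial share above 20%; 331 failed on genes and 361 on mitochondrial share. No doublet caller was run and free RNA was not removed. A class needed at least 3 distinct markers, and every other class had to have under 50% of that number; endothelial subtypes needed 4 interferon, 2 arterial, venous or tip, or 3 capillary markers. The members, lists and markers were chosen with earlier results of these data known. The text names all members. Genes named from each list were taken from up to 3 furthest higher and up to 3 furthest lower per class and comparison, ranked by the nearest bound. Genes of like pattern were taken from the 3 most like each member. Not every gene that met these rules is named. All 31 relatives and 36 receptors and partners matched. Lists were read for the genes that the matrices name, with no test.

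Levels have exact Poisson, shares exact binomial and ratios exact conditional binomial 95% intervals, for counting error only. The ratio code was tested on simulated data. Promoter windows came from RefSeq (GRCm38.p6), and gene positions from the GENCODE annotation of the same build. Python 3.11.15, numpy 2.4.6, pandas 2.3.3 and scipy 1.17.1 were used. Alternatives covered scaling, stricter markers and barcode limits, weighting, thinning to 1000 UMIs, the UMI minimum, the fold limit, subtraction of the leukocyte level and a common subtype mix; keeping only cells with no marker of another class was added after the data were seen.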

Additional observations from a re-analysis of the deposited data

Results flagged for a closer look

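Sparc stood below its control at 24 h and above it at 56 days, with intervals that left out 1 at both times, in several classes. In endothelium the irradiated level was 0.809-fold at 24 h and 1.88-fold at 56 days, and in capillary cells 0.803-fold and 1.96-fold. In pericytes it was 0.674-fold and 1.52-fold (1.21-fold with cells weighted equally), and in smooth muscle 0.680-fold (0.285-fold after thinning) and 2.17-fold. The other named subtypes did the same. The values were 0.761-fold and 1.40-fold in arterial, 0.752-fold and 1.61-fold in venous, 0.857-fold and 1.83-fold in tip-like and 0.790-fold and 2.06-fold in interferon-high cells. Schwann cells had 0.751-fold and 1.42-fold. In them 1 cell held 164 of the 658 Sparc UMIs in CON 56-days and 1 held 125 of 699 in IR 56-days. The median per Schwann cell was 7 and 6 Sparc UMIs there, at median depths of 3714.5 and 2927 UMIs. Col15a1 took the same directions in interferon-high cells, with 0.449-fold and 4.33-fold, in tip-like cells, with 0.712-fold and 2.06-fold, in endothelium, with 0.608-fold and 2.29-fold, and in capillary cells, with 0.698-fold and 2.14-fold, the last being 3.78-fold after thinning to 1000 UMIs per cell.

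At 56 days Sparc was below its control in FAPs, at 0.861-fold (1.11-fold with cells weighted equally and 1.06-fold after thinning), and above it in endothelium (1.88-fold), pericytes (1.52-fold) and smooth muscle (2.17-fold). None of these differences between times or classes was tested, because each group is 1 library. The CON 56-days library is in every late ratio and had the lowest endothelial Sparc of the 4 libraries, 1971 CPM.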

How the results depend on the processing

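The 81 member ratios were recomputed under each alternative, giving 744 values. Of these 639 lay within the counting interval of the ratio as reported. On the other side of 1 were 45 values, of 22 ratios, and 5 of them passed 1.5-fold there: Sparcl1 in FAPs at 24 h (0.649 to 1.65) and Thbs1 in FAPs at 24 h (0.736 to 3.54), both with at most 1 marker of another class, Sparcl1 in smooth muscle at 24 h (0.923 to 1.69, thinned) and between controls (0.931 to 2.04, no marker of another class), and Thbs1 in smooth muscle at 56 days (0.732 to 7.12, stricter barcode limits). Of these 5, the first was past 1.5-fold as reported. A further 84 fell under the UMI minimum and were not given. Endothelial Sparc at 56 days ran from 1.78 to 1.99. Depth limits Tnc, Postn and Thbs1 outside the classes that hold them, smooth muscle (8 to 24 cells) and FAPs.

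Counts of members past 1.5-fold moved by more than 1.5 times as follows. With a 2-fold limit they were 1 (from 3) in FAPs at 24 h, 0 (from 2) in capillary cells at 24 h, 1 (from 2) in endothelium at 24 h and between controls, 0 (from 1) in pericytes at 56 days and 2 (from 4) between controls. With at least 1 UMI they were 2 (from 1) in FAPs at 56 days, 4 (from 2), 6 (from 3) and 6 (from 3) in capillary cells at 24 h, 56 days and between controls, 4 (from 2) in endothelium at 24 h, 2 (from 1) and 4 (from 1) in pericytes at 24 h and 56 days, and 4 (from 2), 4 (from 1) and 5 (from 2) in smooth muscle; more genes are then measured. With at least 50 UMIs they were 0 in capillary cells and 0 in pericytes at 24 h, and 1 in smooth muscle between controls. Thinned to 1000 UMIs they were 2 and 3 in FAPs at 56 days and between controls, 1 in capillary cells and 1 in endothelium at 24 h, 0 in pericytes at 24 h and 56 days, and 1 in smooth muscle between controls.

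With cells weighted equally the counts were 2 in FAPs at 56 days, 4 in endothelium between controls, 3 and 0 in pericytes at 24 h and 56 days, and 2 in smooth muscle at 56 days. Without the highest cell they were 2 in FAPs, 0 in pericytes and 2 in smooth muscle at 56 days, and 2 in pericytes at 24 h. Centred on the median gene, pericytes at 56 days had 0. With the leukocyte level subtracted, capillary cells at 24 h had 1, endothelium at 56 days 3 and smooth muscle at 56 days 2; leukocytes themselves hold Thbs1 and Fn1, which this removes. With stricter barcode limits, pericytes at 24 h had 2 and smooth muscle 2 at 56 days and 1 between controls. With at most 1 marker of another class, FAPs at 56 days had 2, capillary cells at 24 h 1 and smooth muscle at 56 days 2. With no such marker, FAPs had 1 at 24 h and 3 between controls, capillary cells 0 and endothelium 4 at 24 h, pericytes 2 at 24 h and 2 between controls, and smooth muscle 0 at 24 h and 1 between controls, from as few as 2 cells. Where no construction is named, the cause was not tested. No paired analysis was possible because each group is 1 library.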

Other observations

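Outside the vascular cells and FAPs, Schwann cells carried Postn in all libraries, at 588, 1540, 1047 and 1004 CPM in the control and irradiated limb at 24 h and the control and irradiated limb at 56 days, the order used below. The irradiated level was 2.62-fold the control at 24 h (2.15 to 3.22) and 0.959-fold at 56 days (0.781 to 1.17). Tenocyte-marker cells, 4, 27, 35 and 18 per library, had Tnc at 659, 435, 889 and 800 CPM and Postn at 3083, 2917, 1212 and 465 CPM. Their Sparc level was 14991, 17136, 7291 and 11725 CPM, with a 56-day ratio of 1.61 (1.48 to 1.74). In IR 56-days 1 of these cells held 449 of the 1085 Sparc UMIs. The median per cell was 25.5 Sparc UMIs there, against 24 in CON 56-days. Of the 74 Tnc UMIs of these cells in IR 56-days, 1 cell held 56.

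In leukocytes other than B cells and macrophages Thbs1 was at 125, 148, 692 and 175 CPM, and a UMI was found in 6.67%, 16.7%, 49.0% and 19.6% of them (6.56%, 10.0%, 36.4% and 13.0% after thinning). The 56-day ratio was 0.253 (0.191 to 0.328) and the older control was 5.53-fold the younger (4.69 to 6.57). The 56-day direction was opposite to that in endothelium (4.27-fold); between controls the endothelial ratio was 0.717 with an interval that held 1 (0.363 to 1.42). In macrophages Thbs1 was at 94.1, 461 and 109 CPM in the first 3 libraries, with 0 UMIs in IR 56-days. The kinds of leukocyte in this class were not separated, so a different mix and a different level cannot be told apart.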
